A study of Mus musculus with 6 samples.

Results

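The genes described here encode hepatocyte growth factor (Hgf), its receptor MET, the fibroblast growth factors Fgf1 and Fgf2, and the 4 FGF receptor tyrosine kinases Fgfr1, Fgfr2, Fgfr3 and Fgfr4. They were chosen by gene symbol: every probe set whose single symbol in the platform annotation was one of these 8 genes was taken, which gave 22 of the 45101 probe sets on the array and 8 of its 18194 singly named genes. Expression was measured in mouse pancreatic islets, the clusters of hormone-secreting cells inside the exocrine pancreas, freed from the gland with collagenase. One group of 3 arrays held islets of non-pregnant mice, labelled 0 days post coitum (dpc), and the other group of 3 held islets of pregnant mice at 12.5 dpc. No genetic change or drug is named for either group, and the labels hold neither strain nor age. The study asked which factors drive islet cells to divide in pregnancy. Whether the 3 arrays of each group stand for different animals is not stated, so every p-value below weighs a difference against a spread that may be technical, and the number of arrays limits the precision.

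HGF is secreted, mostly by mesenchymal and endothelial cells, as an inactive precursor that proteases cut into the active form, and it binds MET, a receptor tyrosine kinase of epithelial and endocrine cells. FGF1 and FGF2 bind FGF receptors together with heparan sulfate, and both receptor families signal through adaptor proteins to the RAS-MAPK and PI3K pathways, which in turn induce feedback inhibitors such as the Sprouty proteins. In islets, HGF is known as a stimulus of beta cell division, also in pregnancy, and beta cells carry FGF receptors that have been linked to glucose sensing.

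Levels are MAS5 signals, intensities that the array software corrects for background and scales to a common level. The median signal of an array lay between 86.1 and 100.3, and the 3 TrpnX control probe sets, which target a bacterial transcript, ran from 1.1 to 32.3. The labelled tissue was borne out by bright endocrine markers: Iapp, the beta cell hormone amylin, had 47044 to 51191 and Ppy, pancreatic polypeptide, 44917 to 55836 on the 6 arrays. Markers of other cells were present too, and some of them moved with the group. The summed signal of 14 acinar (enzyme-secreting) markers ran from 186598 to 346052 in non-pregnant islets and from 108250 to 174638 in pregnant ones, and that of 10 stellate cell and fibroblast markers from 8583 to 8874 and from 4819 to 6544. In such bulk samples, fewer cells of a type and less RNA per cell cannot be told apart.

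Among these genes a single probe set, one for Fgf1, differed between the groups beyond the threshold, and it was lower in pregnancy. Hgf, Met and the 4 FGF receptor genes did not pass in any tested probe set, and Fgf2 was too dim to be tested. Of the 22 probe sets, 12 passed the filter on mean signal over all 6 arrays, which corresponds to about 50.5. In the limma fit, 1 of these 12 fell and 0 rose at a Benjamini-Hochberg adjusted p under 0.05, and at an unadjusted p under 0.05 the counts were also 1 lower and 0 higher, where 22.9% of all probe sets tested passed and 13% did so with a lower level. Over all 27022 probe sets tested, 9.57% were called, 4.79% higher and 4.78% lower, so a count of 1 in 12 is no result about these genes as a group. The groups did not overlap in 4 of the 12, against 27.7% of all probe sets tested. The pregnant arrays were the lower ones in 4 of the 12, against 16.1% of all, and the higher ones in 0, against 11.6%. Of the 7493 probe sets without overlap over the whole array, 4361 were lower in pregnancy. Fgfr1 holds 2 of the 4, so they are not 4 separate genes. The log2 difference was below 0 in 9 of the 12, against 57.2% of all, with a median of -0.25 beside -0.04 over all probe sets tested.

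**Figure D1:**
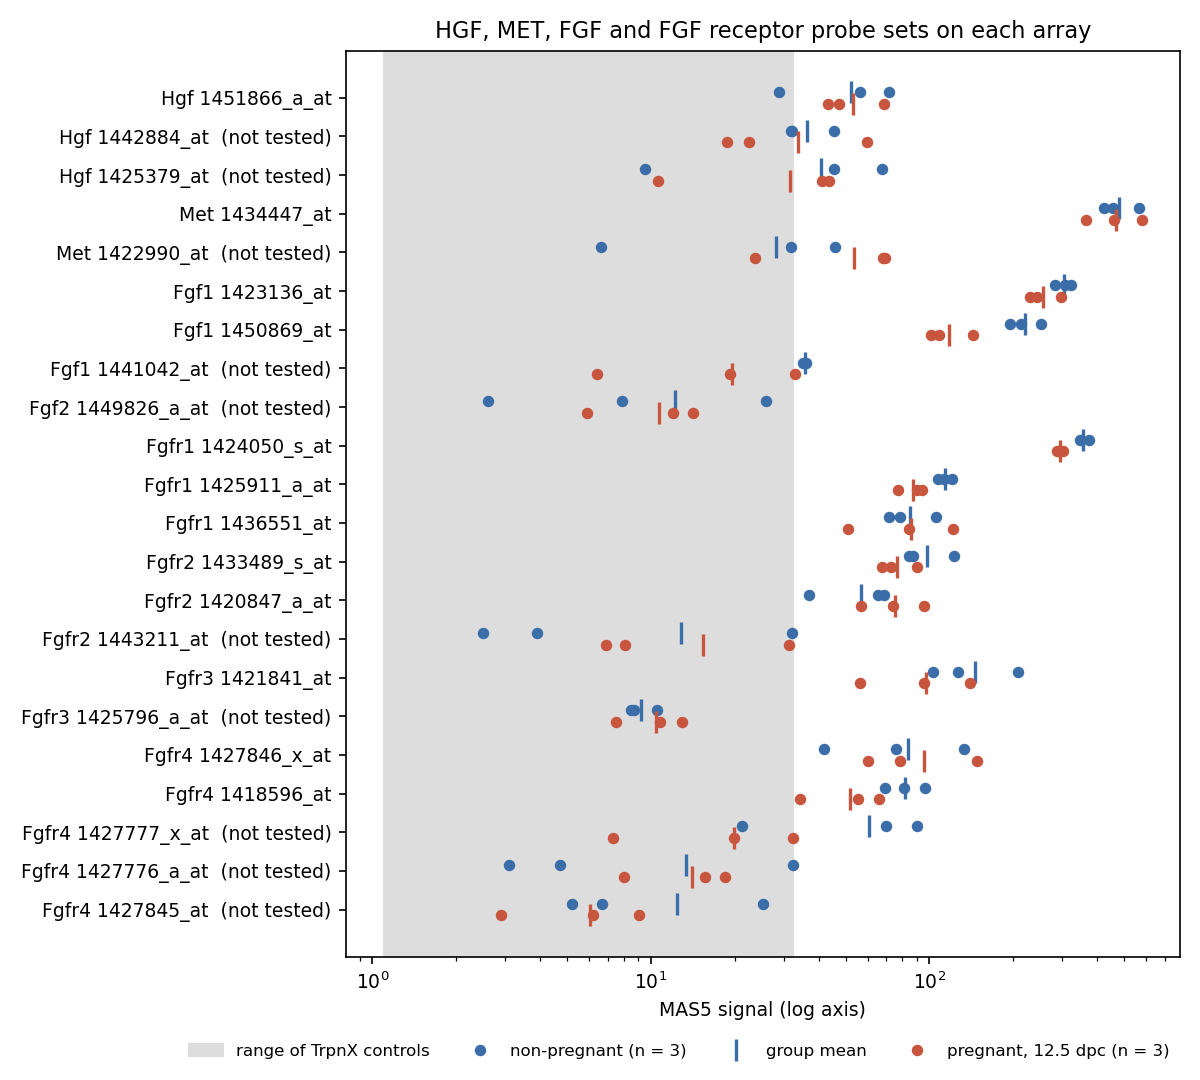
MAS5 signal (log axis) of the 22 probe sets for the 8 genes on each of the 6 arrays; points are arrays, vertical ticks are group means, and the grey band is the 1.1 to 32.3 spanned by the TrpnX controls. The groups stand apart for Fgf1 probe set 1450869_at, where the non-pregnant arrays lie between 195.4 and 251.3 and the pregnant arrays between 101.6 and 143.1, while for most others the points of both groups are mixed.

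The ligand FGF1, also called acidic FGF, is unusual among secreted FGFs in that it binds all the FGF receptors and has no classical secretion signal. Fgf1 had 3 probe sets, 2 of them tested. Probe set 1450869_at gave signals of 251.3, 195.4 and 214.2 in non-pregnant replicates 1, 2 and 3 and of 143.1, 101.6 and 107.9 in pregnant replicates 1, 2 and 3. Every pregnant array was below every non-pregnant one. The mean went from 220.3 ± 28.4 (SD, n = 3) to 117.5 ± 22.4 (n = 3), with 0.534 times the signal and a log2 change of -0.83 ± 0.20 (SE; 95% interval -1.26 to -0.40; limma adjusted p = 0.020).

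The other tested Fgf1 probe set, 1423136_at, had 323.8, 306.6 and 281.7 in non-pregnant and 297.6, 243.8 and 229.4 in pregnant islets. Here the groups overlapped, since pregnant replicate 1 lay above non-pregnant replicate 3, and the log2 difference was -0.24 ± 0.15 (95% interval -0.56 to 0.09, limma adjusted p = 0.39). Within each array, the log2 ratio of 1450869_at to 1423136_at averaged -0.44 ± 0.15 (SD, n = 3) without and -1.04 ± 0.09 (n = 3) with pregnancy. This ratio was formed after the values were seen and is a description; whether the probe sets of Fgf1 differ in their change was not tested. The mean of both had a log2 difference of -0.53 ± 0.15 (limma adjusted p = 0.042). The third Fgf1 probe set, 1441042_at, was not tested, with 36.2, 35.8 and 35.1 against 19.3, 32.8 and 6.4, of which 2 values lie within the range of the TrpnX controls.

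The Fgf1 call was close to the threshold. Its adjusted p was 0.074 or 0.055 with non-pregnant replicate 1 or 3 left out and 0.070 or 0.060 with pregnant replicate 2 or 3 left out, while the log2 difference stayed between -0.96 and -0.74 with any 1 array left out. It was 0.058 with no filter on dim probe sets and 0.056 without a variance trend in limma. With the acinar markers' median on each array added as a covariate, the log2 difference was -0.77 ± 0.37 (SE; adjusted p = 0.39). With that of the stellate cell and fibroblast markers it was -1.21 ± 0.49 (adjusted p = 0.55). Both standard errors were larger than the 0.20 of the reported fit. Both marker levels moved with the group, and their part in the Fgf1 result was not tested beyond these fits.

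By the root mean square difference of log2 values over the 6 arrays, each centred on its own mean, the genes whose pattern was most like that of Fgf1 probe set 1450869_at were Dapl1 (0.088), Cryba2 (0.093) and Aard (0.10). Their log2 differences were -0.87 ± 0.10, -0.80 ± 0.14 and -0.96 ± 0.14 (SE). Likeness was measured over 6 arrays in which the group difference is the main variation, so any gene that fell by a like amount comes out near Fgf1.

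FGF2, basic FGF, is stored on heparan sulfate in the matrix. The 1 probe set for Fgf2 had signals of 7.9, 26.0 and 2.6 in non-pregnant and 5.9, 12 and 14.2 in pregnant islets. All 6 values lie within the range of the TrpnX controls, so no change of Fgf2 could be measured here.

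Fgfr1, whose product is the FGF receptor most often linked to beta cells, had 3 tested probe sets, and none passed. The brightest, 1424050_s_at, had 375.5, 347.1 and 350.0 in non-pregnant and 301.2, 292.5 and 288.2 in pregnant islets. The groups did not overlap, but the difference was small, -0.27 ± 0.12 on the log2 scale (95% interval -0.54 to 0.0025, limma unadjusted p = 0.052, adjusted p = 0.22). The name of a probe set ending in _s_at marks probes shared by several transcripts. In the same direction, 1425911_a_at had 113.1, 121.0 and 107.7 against 77.4, 94.5 and 90.0, again without overlap (-0.33 ± 0.22, adjusted p = 0.43). The third, 1436551_at, had 105.5, 71.8 and 78.7 against 84.3, 51.0 and 121.7, with the highest and the lowest value both among the pregnant arrays (-0.04 ± 0.31, adjusted p = 0.96).

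Fgfr2, a receptor best known from epithelia, had 2 tested probe sets with opposite signs. Probe set 1433489_s_at had 122.5, 84.6 and 87.1 in non-pregnant and 67.5, 90.4 and 72.6 in pregnant islets (-0.29 ± 0.26, adjusted p = 0.57), and 1420847_a_at had 36.9, 68.8 and 65.5 against 95.3, 57.0 and 73.9 (0.33 ± 0.32, adjusted p = 0.60). In both, the groups overlapped, and a direction for Fgfr2 cannot be given. The Fgfr2 probe set 1443211_at, at 2.5 to 32.2 on the 6 arrays, was within the range of the TrpnX controls throughout.

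For Fgfr3, known as a brake on bone growth, probe set 1421841_at had 126.6, 102.7 and 207.7 in non-pregnant and 56.4, 95.6 and 139.7 in pregnant islets. The mean went from 145.7 ± 55 (SD, n = 3) to 97.2 ± 41.7 (n = 3), but pregnant replicate 3 lay above 2 of the non-pregnant arrays (-0.53 ± 0.32, adjusted p = 0.36). The interval, -1.22 to 0.16, includes both a fall by more than 1 and no change. The sign turned with either marker covariate, to 0.45 ± 0.48 (acinar) and 0.96 ± 0.66 (stellate). The dimmer 1425796_a_at had 7.5 to 12.9 and was not tested.

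Fgfr4, a receptor for endocrine FGFs in the liver, had 5 probe sets, of which 2 were tested. Probe set 1418596_at had 69.2, 81.0 and 96.1 in non-pregnant and 66.0, 55.4 and 34.2 in pregnant islets, without overlap and with a gap of a few signal units between non-pregnant replicate 1 and pregnant replicate 1 (-0.55 ± 0.31, 95% interval -1.22 to 0.11, adjusted p = 0.32). Probe set 1427846_x_at, whose suffix marks probes that can match other sequences, had 41.8, 133.3 and 76.2 against 148.0, 60.4 and 78.6 (0.19 ± 0.38, adjusted p = 0.83). The other 3 were dim, and among them 1427777_x_at had 90.5, 70.0 and 21.3 against 7.3, 32.3 and 19.9 (with no filter, -1.03 ± 0.47, adjusted p = 0.32).

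For Met, no difference beyond the spread between arrays was found. Probe set 1434447_at had 455.6, 423.4 and 564.3 in non-pregnant and 461.8, 579.8 and 366.2 in pregnant islets, means of 481.1 ± 73.8 (SD, n = 3) and 469.3 ± 107 (n = 3). The pregnant arrays held both the highest and the lowest value. The log2 difference was -0.05 ± 0.16 (95% interval -0.41 to 0.31, adjusted p = 0.91), so larger changes lie outside the interval, while a smaller one could be missed. Its sign turned in 5 of 19 alternative fits. The dim 1422990_at, with 6.6, 46.0 and 31.9 against 23.7, 69.4 and 68.0, was not tested (with no filter, 0.70 ± 0.48, adjusted p = 0.56).

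Hgf, the ligand of MET, was near the limit of the array. Probe set 1451866_a_at, the only 1 of 3 to be tested, had 28.9, 71.5 and 56.2 in non-pregnant and 43.1, 47.5 and 68.5 in pregnant islets (0.05 ± 0.36, 95% interval -0.73 to 0.84, adjusted p = 0.96). The pregnant values lay inside the span of the non-pregnant ones. The untested 1442884_at and 1425379_at, at 18.8 to 59.8 and 9.5 to 67.4, overlapped between groups as well.

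**Figure D2:**
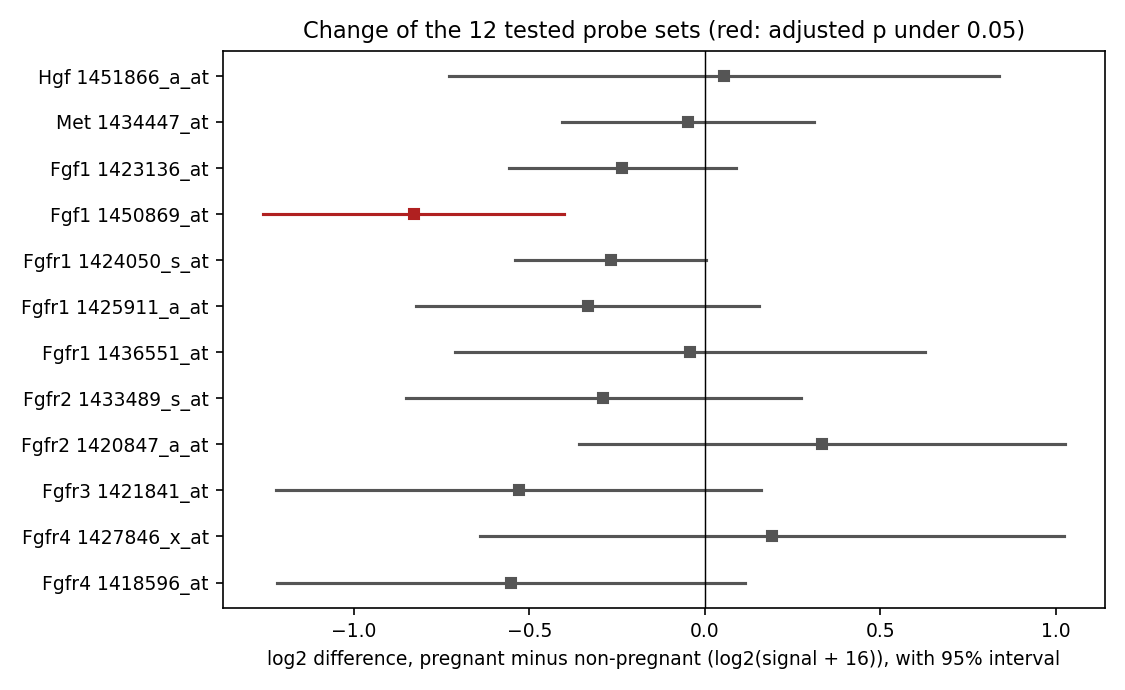
Log2 difference between pregnant and non-pregnant islets, on the log2(signal + 16) scale, for the 12 tested probe sets, with 95% intervals from limma. The interval of Fgf1 probe set 1450869_at, -1.26 to -0.40, lies below 0, and that of each of the other 11 includes 0.

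The rest of the pathway was described with 7 lists holding 110 genes, of which 101 had a named probe set and 75 were tested, each by its brightest tested probe set. Of these 75 genes, 4 rose and 11 fell. Over all 12914 genes tested, 6.1% rose and 5.79% fell, and the median log2 difference of the 75 was -0.11, beside -0.04 for all genes. The number of falls moved with the scaling: quantile normalization gave 4 higher and 8 lower, where 6.3% and 5.31% of all genes tested were called, and centring each array on its median gave 4 higher and 3 lower (Fgf12, Fgf13 and Frs3), where 6.75% and 2.55% were. At an unadjusted p under 0.05, 6 of the 75 were higher and 18 lower, beside 12.2% and 15% of all genes, the shares against which such counts for the single lists below are to be read. Of the 15 called genes, 8, 9 and 6 passed when non-pregnant replicate 1, 2 or 3 was left out, and 5, 10 and 7 when pregnant replicate 1, 2 or 3 was. Without non-pregnant replicate 3, 2.67% of the pathway genes were called lower, beside 4.26% of all genes. Without pregnant replicate 1 these shares were 2.67% and 3.07%. With any other array left out they were 5.33% to 9.21% and 3.5% to 4.34%. With no variance trend 1 of the 15 passed, Ext1, where 1.95% of all genes were called higher and 0.79% lower. With the tested probe sets of a gene averaged 11 passed, all but Ncam1, Glce, Flrt1 and Etv5. With either marker covariate 0 passed in limma. At an unadjusted p under 0.05, 4 tested pathway genes were then higher and 10 lower with the acinar covariate. With the stellate covariate these counts were 2 and 4. Over all alternative fits (listed in the closing part), the log2 difference of Spry1 ran from -0.59 to -0.06. That of Ncam1 ran from -0.35 to -0.05 and that of Cd44 from -0.50 to -0.13. For St14 it ran from 0.56 to 0.70 and for Ext1 from 0.40 to 0.57. These genes were picked here after their values were seen.

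Feedback inhibitors and target genes of receptor tyrosine kinases are the genes that such receptors switch on. Of 11 tested, 3 fell and 0 rose (4 lower and 0 higher at an unadjusted p under 0.05), with a median of -0.18. Spry1, a Sprouty inhibitor of RAS-MAPK signalling, had 476.2, 485.6 and 467.3 in non-pregnant and 272.0, 361.2 and 356.3 in pregnant islets (-0.52 ± 0.13, limma adjusted p = 0.030). Spry2, its close relative, had 485.3, 552.7 and 524.8 against 391.6, 360.2 and 391.0 (-0.43 ± 0.11, adjusted p = 0.032). For both, every pregnant array was below every non-pregnant one. Etv5, an ETS transcription factor induced by FGF signals, had 280.4, 271.8 and 390.8 against 199.2, 202.4 and 203.8 (-0.58 ± 0.17, adjusted p = 0.047), in 1 of its 3 tested probe sets.

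These 3 calls changed when single arrays were left out. Spry1 had an adjusted p of 0.069 without non-pregnant replicate 1, 0.085 without replicate 2 and 0.069 without replicate 3 of that group, and 0.11 without pregnant replicate 1. Spry2 had 0.066 to 0.11 without any 1 array other than non-pregnant replicate 1, and Etv5 had 0.052 to 0.18 without any 1 array. With median centring the 3 had 0.077, 0.085 and 0.095. Dusp5, a phosphatase of ERK kinases, had -0.30 ± 0.10 (adjusted p = 0.095). The ERK phosphatase Dusp6, a common readout of FGF signalling, had means of 1814.7 ± 63.5 (SD, n = 3) and 1606.9 ± 141.9 (n = 3), a log2 difference of -0.18 ± 0.08 (adjusted p = 0.23); it was named after its values were seen.

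Among co-receptors, binding proteins and adaptors of FGF receptors, 3 of 9 fell and 0 rose (3 lower and 1 higher at an unadjusted p under 0.05), with a median of -0.21. Frs3, a docking protein that links FGF receptors to GRB2, had 240.5, 241.7 and 207.1 in non-pregnant and 122.8, 151.8 and 86.7 in pregnant islets. Its groups did not overlap (-0.87 ± 0.21, limma adjusted p = 0.022), but the adjusted p was 0.065 or 0.071 with non-pregnant replicate 1 or 2 left out and 0.059 or 0.066 with pregnant replicate 1 or 3 left out. Flrt1, a membrane protein that binds FGF receptors, had 525.3, 470.5 and 517.7 against 333.5, 425.7 and 294.9 (-0.52 ± 0.14, adjusted p = 0.040), in 1 of 2 probe sets, and 0.063 to 0.14 without any 1 array other than pregnant replicate 2. Ncam1, a neural adhesion molecule that can engage FGF receptors, fell by 0.30 ± 0.07 (adjusted p = 0.024) with 3 of its 5 probe sets called lower, but had 0.071 without non-pregnant replicate 3 and 0.11 or 0.084 with pregnant replicate 1 or 2 left out. Kl, the co-receptor klotho of FGF23, had a log2 difference of 0.24 ± 0.11 (adjusted p = 0.21).

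Of 16 other secreted FGF ligands, 3 were bright enough to be tested and none passed in limma, also at an unadjusted p under 0.05 (0 of 3). Fgf9 had 319.7, 378.5 and 355.3 in non-pregnant and 350.0, 343.4 and 308.1 in pregnant islets (-0.07 ± 0.13, adjusted p = 0.81). Fgf4 had -0.36 ± 0.31 and Fgf3 0.30 ± 0.48 (adjusted p = 0.55 and 0.77). Among the dim, untested ligands, Fgf10 had 23.6, 37.9 and 3.9 in non-pregnant and 64.2, 64.9 and 73.7 in pregnant islets. Fgf18 had 32.8, 20.3 and 10 against 3.9, 9.4 and 5.9. The groups did not overlap in either, in opposite directions, and both were named after their values were seen. In the other untested ligands the groups overlapped by the brightest probe set, and of all probe sets tested 27.7% had no overlap. All Fgf18 values but that of non-pregnant replicate 1 lie within the range of the TrpnX controls. So do the Fgf10 values of non-pregnant replicates 1 and 3. The 4 FGF homologous factors carry the FGF name but stay inside the cell, where they bind sodium channels and do not act on FGF receptors. Of 3 tested, 2 fell and 0 rose (the same counts at an unadjusted p under 0.05). Fgf13 had 366.3, 245.5 and 338.8 against 120.6, 202.6 and 157.3 (-0.93 ± 0.21, adjusted p = 0.015), and Fgf12 had 1017.1, 914.4 and 738.5 against 615.6, 586.3 and 581.3 (-0.56 ± 0.12, adjusted p = 0.011), the latter in 1 of 3 probe sets. Fgf12 passed with any 1 array left out, while Fgf13 had an adjusted p of 0.061 and 0.057 with non-pregnant replicate 1 or 3 left out and 0.065 without pregnant replicate 1. Fgf14 had -0.03 ± 0.27 (adjusted p = 0.96).

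On the HGF side, 1 of 11 tested genes of HGF processing and MET partners rose and 1 fell (1 higher and 3 lower at an unadjusted p under 0.05), with a median of -0.19. St14, the membrane protease matriptase that can activate pro-HGF, had 457.4, 409.9 and 387.8 in non-pregnant and 701.8, 579.3 and 670.8 in pregnant islets. Every pregnant array was above every non-pregnant one, with a log2 difference of 0.62 ± 0.12 (limma adjusted p = 0.0061) that passed with any 1 array left out. St14 did not pass without the variance trend (0.62 ± 0.11, adjusted p = 0.055). With the acinar and the stellate covariate it had 0.63 ± 0.22 and 0.57 ± 0.31 and did not pass (adjusted p = 0.21 and 0.71). Its inhibitors Spint1 and Spint2 had 0.06 ± 0.07 and 0.05 ± 0.06 (adjusted p = 0.69 for each); they were named after their values were seen. Hgfac, the serum protease that activates HGF, had 2108.9, 2175.7 and 2050.7 against 1752.6, 1749.7 and 1971.8 (-0.21 ± 0.07, adjusted p = 0.11). Cd44, whose variants can act as MET co-receptors, went from 1583.9 ± 217.9 (SD, n = 3) to 1192.9 ± 2.04 (n = 3), with 2 of 3 probe sets called lower (-0.40 ± 0.10, adjusted p = 0.026), but did not pass without any 1 array other than non-pregnant replicate 2 (0.062 to 0.088). Lrig1, which promotes degradation of several receptor tyrosine kinases, had -0.31 ± 0.11 (adjusted p = 0.11). The adaptor gene Gab1 did not pass by its brightest probe set, while a dimmer one was called lower (-0.64 ± 0.17, adjusted p = 0.038; named after its values were seen).

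Of the shared RAS-MAPK and PI3K genes, 1 of 19 rose and 0 fell (1 higher and 1 lower at an unadjusted p under 0.05), with a median of 0.05. Map2k2, the ERK-activating kinase MEK2, had 1661.0, 1602.6 and 1544.2 in non-pregnant and 2036.2, 2085.0 and 2136.0 in pregnant islets (0.38 ± 0.07, limma adjusted p = 0.0053), in 1 of 2 probe sets and with any 1 array left out. The kinase gene Akt1 and the transcription factor gene Stat3 did not pass by their brightest probe sets, but each had a dimmer one called higher, at 0.72 ± 0.14 and 0.26 ± 0.07 (adjusted p = 0.0059 and 0.026; named after their values were seen). The exchange factor Sos2 (-0.26 ± 0.09), the PI3K catalytic subunit Pik3ca (-0.17 ± 0.09) and the PI3K regulatory subunit Pik3r1 (0.20 ± 0.11) did not pass (adjusted p = 0.10, 0.29 and 0.31).

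Heparan sulfate, the sugar chain that FGFs and HGF bind on cell surfaces, is carried by syndecans and glypicans and built by enzymes of the Golgi. Of 19 such genes tested, 2 rose and 2 fell (3 higher and 5 lower at an unadjusted p under 0.05), with a median of -0.18. Ext1, a polymerase of the chain, had 983.0, 1109.0 and 1079.8 against 1490.5, 1516.3 and 1486.6 (0.50 ± 0.08, limma adjusted p = 0.0022), and passed with any 1 array left out. Glce, the epimerase that modifies the chain, had 0.39 ± 0.11 (adjusted p = 0.049), in 1 of 3 probe sets, and 0.12 to 0.16 without non-pregnant replicate 1 or 2 or pregnant replicate 1 or 3. The core protein Sdc4, syndecan 4, went from 2291.4 ± 131.0 (SD, n = 3) to 1787.5 ± 139.8 (n = 3; -0.36 ± 0.08, adjusted p = 0.015) and another, Gpc4 (glypican 4), from 2436.7 ± 137.9 (n = 3) to 1938.7 ± 65.5 (n = 3; -0.33 ± 0.07, adjusted p = 0.014), each in 2 of 2 probe sets. With non-pregnant replicate 3 left out, Sdc4 had an adjusted p of 0.055 and Gpc4 of 0.0501. With pregnant replicate 1 or 3 left out Sdc4 had 0.064 or 0.065, and with pregnant replicate 2 or 3 left out Gpc4 had 0.058 or 0.052. With median centring Sdc4 and Gpc4 had adjusted p-values of 0.11 and 0.10. Genes past an unadjusted p of 0.05 alone were lower for the enzymes and higher for the 1 core protein among them. The heparan sulfate cleaving enzyme Hpse had -0.84 ± 0.26, the chain polymerase Ext2 -0.22 ± 0.09 and the sulfotransferase Hs6st1 -0.30 ± 0.14 (adjusted p = 0.066, 0.18 and 0.21). The core protein Gpc6 had 0.56 ± 0.21 (adjusted p = 0.13). These genes were named after their values were seen.

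**Figure D3:**
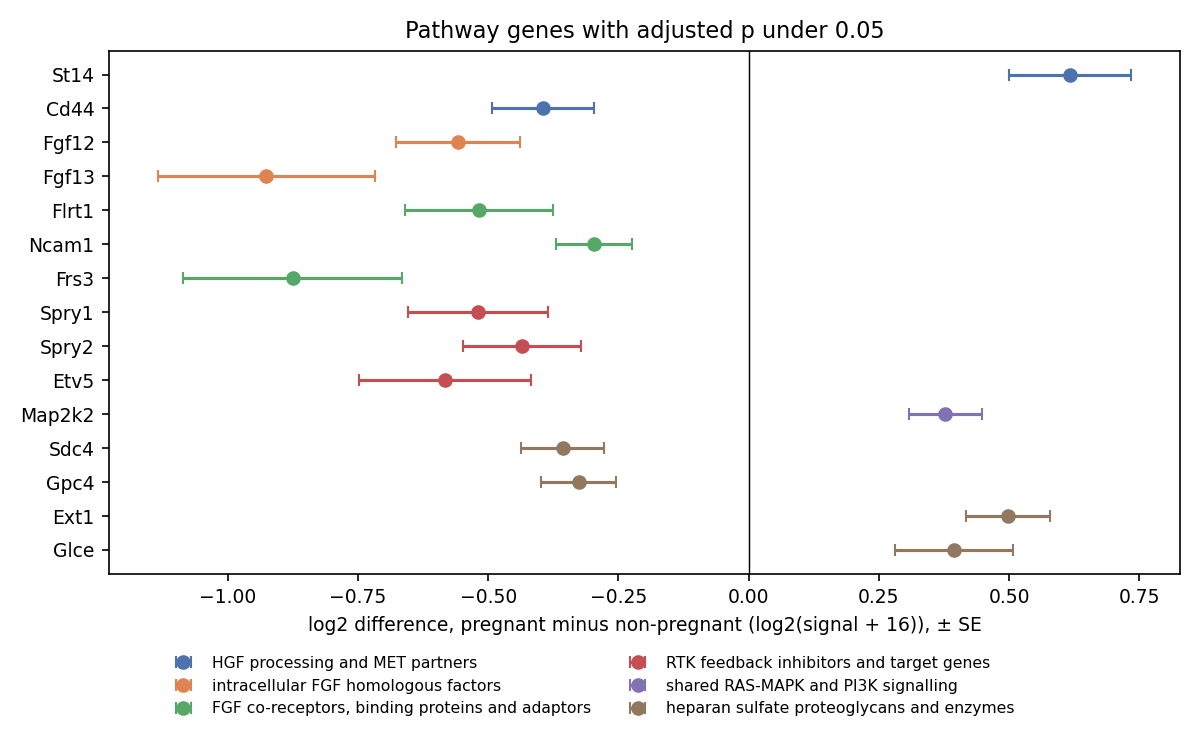
Log2 difference between pregnant and non-pregnant islets (log2(signal + 16) scale, bars are limma standard errors) of the 15 pathway genes with an adjusted p under 0.05, coloured by list. The 4 genes to the right of 0 are St14, Map2k2, Ext1 and Glce, and the largest fall is that of Fgf13 at -0.93.

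Several cell types of the preparation can express these genes, and their markers are given here beside the results. Of the acinar markers 14 of 14 tested fell (median -1.21), among them the elastase genes Cela1 (-1.08 ± 0.17) and Cela3b (-0.57 ± 0.12; limma adjusted p = 0.0017 and 0.013). Of the stellate cell and fibroblast markers 3 of 10 fell and 0 rose (6 and 0 at an unadjusted p under 0.05), with a median of -0.58. Among them were the matrix genes Dcn (-1.20 ± 0.14) and Col3a1 (-0.75 ± 0.11), the latter in 1 of 2 probe sets. With Col1a2, the third gene called, they make up most of the list's summed signal. Of the 10 markers 9 had a log2 difference below 0, but the groups overlapped for Pdgfrb, Acta2, Thy1 and Des. Des had 0.33 ± 0.22 (limma adjusted p = 0.42). All of these but Dcn and Col3a1 were named after their values were seen. Endothelial markers had 1 of 11 lower, the VEGF receptor Flt1 (-0.47 ± 0.10), in 1 of its 4 tested probe sets. At an unadjusted p under 0.05, 3 were lower and 0 higher. The summed signal of the list ran from 11041 to 11787 without pregnancy and from 9728 to 11037 with it. Its medians per array did not overlap, at 0.06 to 0.13 and -0.14 to 0.006. Duct markers had 1 of 3 lower, the keratin Krt7 (-0.27 ± 0.06), which makes up most of the list's sums of 5467 to 5852 and 4639 to 5057. The medians of the duct markers per array overlapped between groups, and another keratin, Krt19, had 0.83 ± 0.41 (adjusted p = 0.26; named after its values were seen). Macrophage markers had 1 of 9 higher, the complement gene C1qa, which went from 3504.9 ± 351.8 (SD, n = 3) to 7299.5 ± 613.1 (n = 3; 1.06 ± 0.08, adjusted p = 1.1e-05). The sums of that list, 6642 to 7302 and 9931 to 11031, differ through C1qa. Its median log2 difference was 0.003, the medians per array overlapped between groups, and the macrophage receptor gene Csf1r had -0.28 ± 0.09 and the complement gene C1qb -0.17 ± 0.11 (adjusted p = 0.068 and 0.38; both were named after their values were seen). Beta cell markers had 2 of 8 lower, of which the glucose transporter Slc2a2 had -0.25 ± 0.05, and a summed signal that overlapped between groups, at 166724 to 177298 and 169952 to 172601. Other endocrine markers had 2 of 8 lower, among them the hormone gene Ghrl (-1.14 ± 0.16), with sums of 182780 to 191767 and 170067 to 186078. At an unadjusted p under 0.05, 4 were lower and 0 higher. All 8 had a log2 difference below 0, beside 7294 of all 12914 genes. Their medians per array did not overlap, at 0.08 to 0.11 without and -0.09 to -0.04 with pregnancy. For the pathway genes, the part of these markers was not tested beyond the acinar and stellate covariates.

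**Figure D4:**
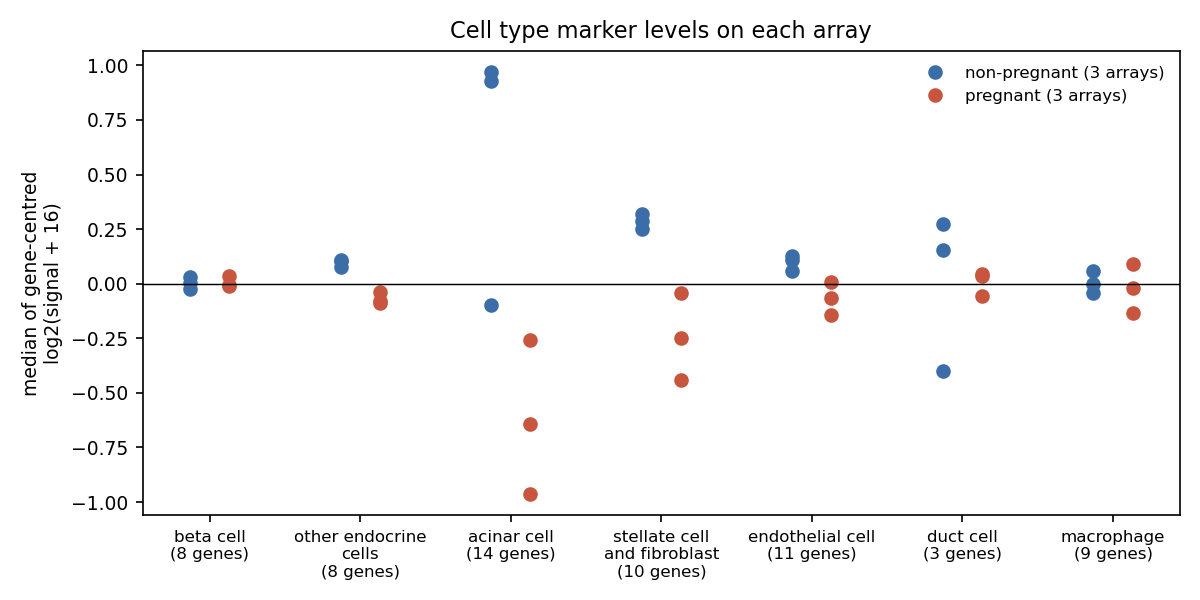
Median over the tested markers of each cell type of log2(signal + 16), each gene centred on its mean over the 6 arrays; points are arrays. The acinar medians run from -0.10 to 0.97 in non-pregnant and from -0.96 to -0.26 in pregnant islets, while the beta cell medians lie between -0.02 and 0.03 on all 6 arrays.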

How the data were processed

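The authors deposited 1 intensity for each probe set and array, which the submitters' processing notes name as MAS5 signal and which is on a linear scale. Version and settings of MAS5 are not stated there. The mean after trimming 2% at each end was 500.003 on all arrays, so no further normalization was applied. Arrays had no identical values in any pair.

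Values were taken as log2(signal + 16); the pseudocount understates changes of dim genes. After 64 control probe sets were left out, the top 60% by mean over all 6 arrays (27022) were tested with limma 3.58.1 in R 4.3.3 (lmFit, eBayes with a variance trend, 2-sided, no covariate), with adjusted p under 0.05 over all of them as the threshold. An error beside a log2 difference is the standard error from limma. On data simulated for this comparison with 27022 probe sets, 27.0% of changes of 0.5 and 64.6% of changes of 1 (log2) were found, and 4.62% of calls were false. The simulated noise was normal, independent between probe sets and drawn with variances from limma's own fit. A share of false calls near the threshold was thus built in. Shifts of cell content or scaling between groups were not simulated, so these shares need not hold for the real arrays.

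Symbols came from the platform annotation, which gave 34958 probe sets 1 symbol, 932 several and 9211 none; 34754 were found by Entrez identifier in the RefSeq table of GRCm38.p6 and 0 changed. Genes without such a probe set here were not analysed. Names in lists followed a rule: up to 4 tested genes with the smallest p from each pathway list, and the smallest p and the brightest from each marker list, with exceptions marked. The 8 genes, the lists and the settings tried (listed with their effect in the closing part) were chosen with earlier results of these data known. Figures used matplotlib 3.10.9 in Python 3.11.15.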

Additional observations from a re-analysis of the deposited data

How the results depend on the processing

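Alternatives were pseudocounts of 1 and 64, quantile normalization, median centring, no filter, a top 40% filter, no variance trend, robust eBayes, array weights, the replicate block, 2 marker covariates, each array left out and, per gene, averaged probe sets. The count of called probe sets of the 8 genes was 1 as reported and 0 with no filter, the top 40% filter (which leaves Fgf1 probe set 1450869_at out), no variance trend, the acinar and the stellate covariate (limma, with 2 of 22, 0 of 3, 4 of 12, 0 of 12 and 1 of 12 at an unadjusted p under 0.05), and 0 to 1 with 1 array left out. No alternative called one higher. The shares of all probe sets at an unadjusted p under 0.05 were not computed for these alternatives, so the unadjusted counts are no result about the 8 genes. Over the whole array, 2587 (1294 higher, 1293 lower) became 603 (393, 210) without the trend, 454 (314, 140) with the acinar and 35 (32, 3) with the stellate covariate, and 1482 to 2259 (808 to 1282 higher, 674 to 977 lower) with 1 array left out; median centring gave 583 lower, and 71.0% of its calls were higher. Of the pathway genes, 4 higher and 11 lower became 1 and 0 without the trend and 0 and 0 with either covariate. Of all genes tested, 1.95% were then higher and 0.79% lower without the trend. With the acinar covariate these shares were 1.59% and 0.65%, and with the stellate covariate 0.155% and 0.0155%. Lower pathway genes numbered 3 with median centring, 7 with no filter and 2 to 7 with 1 array left out. The shares of all genes called lower there were 2.55%, 2.87% and 3.07% to 4.34%. Same-numbered arrays did not deviate together (correlations of -0.03, -0.07 and 0.03), and pairs with unlike numbers had -0.04 to 0.07. No sign was seen that the numbers pair the samples, but so few arrays cannot exclude it. The replicate block gave 2356 calls over the array, 1 for the 8 genes and 4 higher and 9 lower pathway genes.

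Signs turned for probe sets that never passed. Hgf 1451866_a_at had -0.0026 with array weights, -0.27 with the acinar covariate and, with 1 array left out, -0.22 (non-pregnant replicate 1) to 0.16. Met 1434447_at had 0.0014 with quantile normalization, 0.027 with median centring, 0.0085 with the acinar covariate and, with 1 array left out, -0.21 to 0.11 (0.07 without non-pregnant replicate 3, 0.11 without pregnant replicate 3). Fgfr1 1436551_at had 0.028 with quantile normalization, 0.033 with median centring, 0.44 and 0.67 with the acinar and stellate covariates and, with 1 array left out, -0.29 to 0.23 (0.10 and 0.23 for non-pregnant replicate 1 and pregnant replicate 2). With the acinar and stellate covariates, Fgfr2 1420847_a_at had -0.13 ± 0.58 and -0.19 ± 0.80 and Fgfr3 1421841_at 0.45 ± 0.48 and 0.96 ± 0.66. Fgfr4 1427846_x_at had -1.06 ± 0.56 and -1.10 ± 0.89 with them. With 1 array left out it had -0.15 to 0.54 (-0.15 and -0.12 for replicate 1 of either group). Averaged, Fgfr2 had 0.022 and Fgfr4 -0.18. The cause was not tested.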
